A study of Homo sapiens with 7 samples.

Results

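Rb binding was examined at the promoters of the 10 genes POLA1, POLA2, PRIM1, PRIM2, POLD1, POLD2, POLD3, POLE, POLE2 and POLE3, which encode subunits of the enzymes that copy the genome. The genes were chosen by name, and for each gene all peaks were taken that touched a promoter region, running from 2000 bp before to 500 bp after any annotated transcription start, or that lay elsewhere in the gene. All 10 genes were among the 19970 protein-coding genes annotated on chromosomes 1 to 22 and X. All 10 had a promoter peak in both libraries of palbociclib-treated parental cells, against 34.9% of all protein-coding genes. Of them, 2 also had one in both DMSO libraries, against 2.9% of all. None had one in RB1 KO cells (0.01% of all) or with the non-targeting antibody (1.95% of all).

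DNA synthesis starts with the polymerase alpha–primase complex. Its primase subunits PRIM1 and PRIM2 lay down a short RNA primer, which POLA1 extends with DNA while POLA2 serves as the accessory subunit. Polymerase delta (catalytic subunit POLD1 with POLD2, POLD3 and POLD4) then takes over on the lagging strand, and polymerase epsilon (catalytic subunit POLE with POLE2, POLE3 and POLE4) on the leading strand. Rb, the retinoblastoma protein encoded by RB1, binds E2F transcription factors and thereby sits at promoters of genes needed for S phase. Cyclin-dependent kinases CDK4 and CDK6 phosphorylate Rb and release it, and palbociclib inhibits both kinases.

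Rb was mapped by CUT&RUN, in which an antibody directs a nuclease to its target and the cut fragments are sequenced, in ZR-75-1, a breast cancer line that expresses the oestrogen receptor. Parental cells received DMSO or 500 nM palbociclib for 4 days, with 2 Rb libraries each. RB1 KO cells, made by CRISPR–Cas9 and single-cell sorting, gave 1 Rb library with DMSO and 1 with palbociclib, so the knockout group rests on sorted clonal cells. An isotype antibody, IgG2a, was used for 1 library of palbociclib-treated parental cells. The study's methods describe chromatin profiling replicates of cell lines as independent cultures with separate reactions.

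There were 816 to 996 peaks per list with DMSO and 8256 to 8399 with palbociclib. The genome-wide background floor, which grows with sequencing depth and with fragment length, was 0.571 and 0.465 fragments with DMSO, then 0.516 and 0.549 with palbociclib. The RB1 KO lists held 4 and 5 peaks on chromosomes and the IgG2a list 1724. The nearest IgG2a peak to the canonical start of any of the 10 genes was 139685 bp away, at POLD3.

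With palbociclib, 10 of 10 genes had a promoter peak in both lists, compared with 34.9% of all protein-coding genes. With DMSO, 2 of 10 had one in both lists, PRIM1 and POLD2, compared with 2.9% of all protein-coding genes. The same 2 genes were thus present in all 4 parental lists, again against 2.9%. A further 3 genes, POLA2, POLD1 and POLE, had a peak in both palbociclib lists and 1 DMSO list (3.66% of all genes). The remaining 5, POLA1, PRIM2, POLD3, POLE2 and POLE3, had a peak in both palbociclib lists and in neither DMSO list (28.4% of all genes). No member had a promoter peak in the IgG2a list (1.95% of all genes) or in either RB1 KO list (0.01% of all genes). Outside the promoter regions no peak fell in any of the 10 genes in any list.

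With only the top 816 peaks of every parental list by q-value, the length of the shortest list, 3 genes remained in both palbociclib lists, PRIM1, POLD1 and POLD2, against 3.82% of all genes, and none was present with palbociclib alone, against 0.731%. The count of 2 in both DMSO lists was the same under that setting. The number of genes listed with palbociclib alone therefore depends on how deep into each list peaks are taken.

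Of the 10 genes, 5 carried a match to the E2F recognition motif inside their palbociclib peaks. The motif was searched on both strands as TTT, then 2 bases that are each C or G, then CGC. The stretches below come from the hg38 genome, read 5′ to 3′ on the strand that holds the match, with the motif in capitals. They are shown because they are the E2F matches found under the palbociclib peaks described here, and they allow the positions described with each gene to be seen in their surroundings. The stretches cover chrX:24693755-24693814 on the minus strand for POLA1, chr11:65261898-65261927 on the plus strand for POLA2, chr19:50384357-50384386 on the minus strand for POLD1, chr12:132687342-132687371 on the plus strand for POLE and chr14:49688201-49688230 on the plus strand for POLE2.
POLA1: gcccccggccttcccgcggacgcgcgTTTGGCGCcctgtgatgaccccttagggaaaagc
POLA2: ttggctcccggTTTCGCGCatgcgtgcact
POLD1: ttcaaacagcgTTTCCCGCcacagcctacg
POLE: caggggagaaaTTTGGCGCgctcccaccca
POLE2: catatttgcgaTTTGGCGCcaccgccgcag
The same 8 letters, with GG in the variable positions, occurred at POLA1, POLE and POLE2. The matches of POLE2, POLE and POLD1 lay closest to the canonical start, centred at −2, −14 and +24 bp, while those of POLA2 and POLA1 were centred at −50 and −134 bp. With the whole motif within 100 bp of the summit, 2 of 10 genes held a match in palbociclib replicate 1 (POLE and POLE2) and 3 of 10 in replicate 2 (POLD1, POLE and POLE2). The same held for 5.45% of all 6626 promoter peaks in replicate 1 and 5.67% of all 6491 in replicate 2, and for 2.8% of windows of the same length at the canonical starts of protein-coding genes. Across whole peaks, 5 of 10 genes held a match in either replicate, compared with 13.5% and 13.3% of promoter peaks. No match was found in the palbociclib peaks of PRIM1, PRIM2, POLD2, POLD3 or POLE3.

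The pair of genes with the strongest peaks, PRIM1 and POLD2, held no E2F match anywhere in their palbociclib peaks. POLE2, with a match 28 and 34 bp from its summits, had the lowest mean fold enrichment of all 10. Over all protein-coding genes the motif was described by presence in the DMSO lists, not by level. With only 2 members present in all 4 parental lists, these genes cannot be read as a departure from the shares that follow. The motif lay within 100 bp of the replicate 1 summit in 15% of peaks of genes present in all 4 parental lists. The share was 7.29% for genes in both palbociclib lists and 1 DMSO list, and 4.74% for genes listed with palbociclib alone. Among other short motifs, the CCAAT box lay within 100 bp of the summit of PRIM1 and POLD2 in replicate 1 and of POLD2, POLE and POLE3 in replicate 2, against 24.6% and 25.4% of promoter peaks. The GC box GGGCGG lay there in 7 of 10 and 5 of 10 genes, against 68.7% and 70% of promoter peaks, so these shares were near the background. Inside whole peaks, the NRF1 motif (GCGC, any 2 bases, GCGC) was found in 5 of 10 genes in replicate 1 and 6 of 10 in replicate 2, against 23.2% and 22.8% of promoter peaks. The letters TTTGAA of the cell cycle homology region were found in 4 of 10 and 3 of 10, against 9.76% and 9.17%. For the CCAAT box the whole-peak counts were 6 of 10 in both replicates, against 41.9% and 41.6%. For GGGCGG they were 9 of 10 in both, against 87.7% and 87.9%. An ETS motif (CCGGAAGT) was found inside the peaks of POLA1 alone, against 7.61% and 7.66% of promoter peaks, and a cyclic AMP response element in no member, against 2.63% and 2.73%. Within 100 bp of the summit, the NRF1 motif lay in 1 and 3 of 10 genes, against 11.2% and 11.7% of promoter peaks. TTTGAA lay there in 1 and 1, against 3.27% and 3.36%. The 10 genes had wider peaks than all genes called in both palbociclib lists (medians of 711 and 552 bp). Whole-peak shares, also those of the E2F motif, therefore do not compare stretches of like length.

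In the polymerase alpha–primase complex, PRIM1 carried the strongest Rb peak of all 10 genes. The level given here and below is fold enrichment, the fragment pileup at the summit over the local background, each with 1 added. At PRIM1 the DMSO libraries gave 18.1 and 11.3, and the palbociclib libraries 50.4 and 54.1. Both palbociclib values lay above both DMSO values, with 3.65-fold higher enrichment (log2 difference 1.87 ± 0.48, SD, n = 2 per group), which exceeds the log2 gap of 0.67 between the DMSO replicates. The exact permutation test, two-sided, gave p = 0.333, the smallest that 2 libraries against 2 allow. The palbociclib peaks stood above 99.4% and 99.5% of genes with a promoter peak in the same lists. The summit lay 51 to 145 bp downstream of the canonical start in all 4 lists (chr12:56752323, minus strand), in a coding exon in 3 lists and in an intron in palbociclib replicate 2. That promoter is shared with HSD17B6, a hydroxysteroid dehydrogenase gene on the opposite strand whose nearest start is 75 bp away. The canonical starts of the pair are 11001 bp apart, so only an alternative HSD17B6 start lies at this peak. These lists cannot assign the peak to one of the pair.

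POLA1, the catalytic subunit, had the next highest level of this complex with palbociclib, at 20.4 and 17.5, and no peak in either DMSO list. Its peaks spanned chrX:24693543-24694176 and chrX:24693496-24694136. Both summits lay upstream of the gene, at −231 and −249 bp from the canonical start, which made POLA1 the only gene with both palbociclib summits upstream of its canonical start at one promoter. The centre of the E2F match printed above was 98 and 116 bp from these summits, on the side of the start, so that the motif ran past the 100 bp window in replicate 1 and was not counted there.

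PRIM2, the large primase subunit, was listed only with palbociclib, at 7.92 and 12.9. These replicates differed by 0.71 on the log2 scale, compared with a median of 0.27 over all genes called in both lists. PRIM2 had the broadest peaks of the 10 genes, 1201 and 1114 bp wide, reaching upstream of the start. The annotation holds a pseudogene copy, PRIM2BP, on the same chromosome, and how reads shared between the copies were placed was not tested.

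At POLA2, the accessory subunit, the level was 4.91 in DMSO replicate 2 and 7.75 and 7.41 with palbociclib, and no peak was listed in DMSO replicate 1. The palbociclib peaks were nearly identical in extent, 612 and 613 bp from the same first base, although their summits were 191 bp apart. The DMSO peak was 185 bp wide with its summit at −163 bp from the canonical start, and the palbociclib summits lay at +250 and +59 bp. The region also holds the start of a non-coding RNA gene on the opposite strand and of a second coding model on the same strand.

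**Figure D1:**
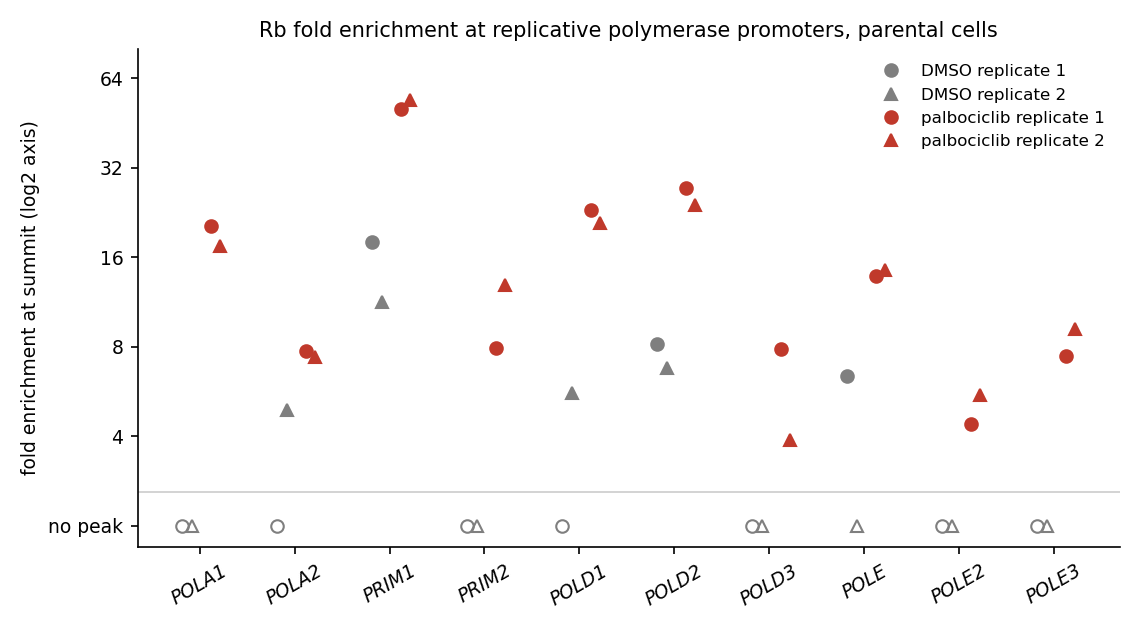
Fold enrichment at the summit of the highest promoter peak (log2 axis) of each gene in the 4 parental Rb lists, with DMSO in grey, palbociclib in red, replicate 1 as circles and replicate 2 as triangles. Open symbols below the line mark lists without a promoter peak. PRIM1 and POLD2 have points in all 4 lists, with palbociclib above DMSO, and all 10 genes have both palbociclib points.

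Among the polymerase delta genes, POLD2 and POLD1 had high levels with palbociclib and POLD3 a low one. POLD2, the accessory subunit that binds the catalytic subunit, gave values of 8.19 and 6.80 in the DMSO libraries, and 27.3 and 24.0 after palbociclib. Both treated values were above both untreated values, by 3.43-fold (log2 difference 1.78 ± 0.23, SD, n = 2 per group; exact permutation p = 0.333, two-sided), against a log2 gap of 0.27 between the DMSO replicates. The difference at PRIM1 and at POLD2 was close to the median over the 580 genes present in all 4 parental lists, which was 3.67-fold (log2 1.88). Every one of those 580 genes had both palbociclib values above both DMSO values (100%), so this order of the lists is shared by all genes of that class and is not particular to PRIM1 and POLD2. The POLD2 summit was 139 and 144 bp downstream of the canonical start with DMSO and 78 and 51 bp downstream with palbociclib.

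POLD1, the catalytic subunit, which carries the proofreading activity of polymerase delta, had no peak in DMSO replicate 1. The level was 5.60 in DMSO replicate 2 and 23.05 and 20.8 with palbociclib. The DMSO peak (−log10 q of 3.97) was much weaker than the treated peaks (58.8 and 52.6). The palbociclib summits fell on both sides of the canonical start, at −102 and +120 bp, with the E2F match in between.

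POLD3, which contacts the sliding clamp, was called at different places in the replicates. At its canonical start (chr11:74592582) a peak was present in palbociclib replicate 1 alone, at chr11:74592625-74592955 with a fold enrichment of 7.87. A second annotated start lies far upstream, and there both palbociclib lists held a weak peak, with fold enrichments of 4.12 and 3.89 and −log10 q of 2.40 and 2.68. The upstream start is shared with LIPT2, a lipoyltransferase gene whose own start is 127 bp away on the opposite strand. POLD3 was therefore counted as bound in both lists only through the upstream start. With canonical starts alone, 9 of 10 genes had a peak in both palbociclib lists and 4 were listed with palbociclib alone. The shares of all genes under this rule were not computed.

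POLD4, the smallest subunit of polymerase delta, had levels of 7.95 and 7.1 with palbociclib and no peak with DMSO. Of the 4 delta subunits, POLD1 and POLD2 thus stood between the 92.4 and 95.9 percentiles of genes with a promoter peak in the palbociclib lists. POLD4 stood near the middle at the 52.1 and 44.4 percentiles. POLD3 stood at the 51.1 percentile in replicate 1 and the 6.5 percentile in replicate 2, for peaks at different starts.

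In polymerase epsilon the catalytic subunit had the highest level. POLE, whose product contains the leading-strand polymerase and its proofreading domain, had a fold enrichment of 6.37 in DMSO replicate 1, no peak in DMSO replicate 2, and 13.9 and 14.5 with palbociclib. The palbociclib peaks were 1045 and 1101 bp wide and covered the start of PXMP2, a peroxisomal membrane protein gene 211 bp away on the opposite strand. The summits lay at +74 bp from the canonical start in replicate 1 and at −109 bp in replicate 2, with the E2F match about midway, 88 and 94 bp from the respective summits.

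POLE2, the accessory subunit of epsilon, had the lowest mean level of the 10 genes. Its values were 4.38 and 5.51 with palbociclib, at widths of only 218 and 222 bp, and no DMSO list held a peak. The summits were 32 and 27 bp downstream of the canonical start and only 5 bp apart between replicates. This made POLE2 the gene whose replicate summits lay nearest to each other.

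POLE3, a histone-fold subunit that also belongs to a chromatin remodelling complex, had levels of 7.42 and 9.21 with palbociclib and no peak with DMSO. Its summits lay 538 and 457 bp downstream of the canonical start, the farthest of the genes called at one promoter, and 206 and 125 bp from the nearest annotated start. The peaks reached back to the canonical start, which is shared with C9orf43 on the opposite strand at a distance of 67 bp between the nearest starts. POLE4, its histone-fold partner, had levels of 5.26 and 5.46 with palbociclib and no peak with DMSO.

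**Figure D2:**
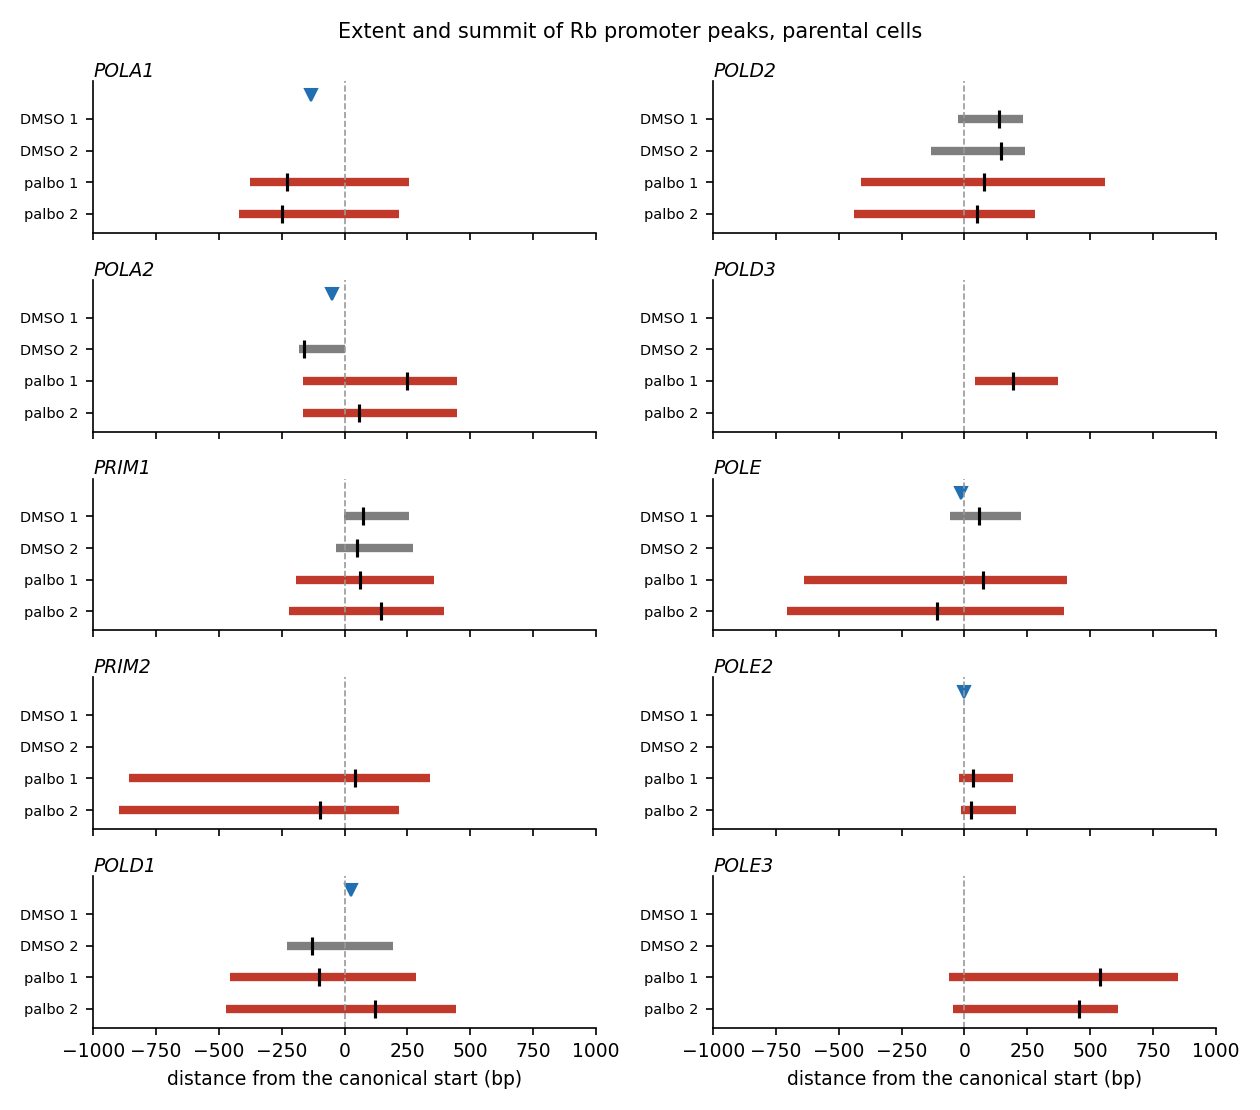
Promoter peaks of each gene in the 4 parental lists as bars (DMSO grey, palbociclib red) against distance in bp from the canonical start (dashed line, gene running to the right), with black ticks at the summits and blue triangles at E2F motif matches inside palbociclib peaks. The treated bars are wider than the untreated ones wherever both exist, POLE2 has the shortest bars with palbociclib, and the upstream POLD3 peaks lie outside the plotted range.

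Peaks listed with both treatments were wider with palbociclib. At PRIM1 the width was 259 and 309 bp with DMSO and 551 and 621 bp with palbociclib. At POLD2 it was 258 and 377 bp with DMSO and 971 and 724 bp with palbociclib. The single DMSO peaks at POLA2, POLD1 and POLE were 185, 420 and 283 bp wide, compared with 612 to 1101 bp for the palbociclib peaks of the same genes. Among all 580 genes present in all 4 lists, both palbociclib widths exceeded both DMSO widths in 100%, so PRIM1 and POLD2 did not differ in this from the other genes of their class. The median width of the 10 genes with palbociclib was 711 bp, against 552 bp over the 6974 genes called in both palbociclib lists. The median distance from summit to nearest start was 51 bp in replicate 1 and 92 bp in replicate 2, against 102.5 and 101 bp over all those genes, and measured to the canonical start it was 102 bp for the members, averaged over both replicates.

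The order of the genes depended on the measure. By mean fold enrichment the order was PRIM1 (52.3), POLD2 (25.7), POLD1 (21.9), POLA1 (19.0), POLE (14.2), PRIM2 (10.4), POLE3 (8.32), POLA2 (7.58), POLD3 (5.88, over peaks at different starts) and POLE2 (4.95). The replicate values of the leading 5 did not overlap those of their neighbours in this order, whereas from PRIM2 downward neighbours overlapped. Fold enrichment and its −log10 p together fix the whole number of fragments over the summit and the local background, and both were recovered for every peak. At PRIM1 the palbociclib summits held 77 and 85 fragments and at POLD2 93 and 87, so POLD2 led by fragment number although its fold enrichment was lower. The background differed between these promoters, at 1.06 and 1.07 times the floor at PRIM1 and 4.73 and 4.86 times the floor at POLD2.

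With DMSO the same pair held nearly equal fragment numbers, 28 and 16 at PRIM1 and 28 and 20 at POLD2. Background over floor was 1.06 and 1.07 at PRIM1 and 4.45 and 4.48 at POLD2 in those lists, similar to the palbociclib lists. Background over floor thus differed more between these genes than between treatments. Peaks were called against IgG, and whether these lists shared a control library was not tested. Like values in both treatments therefore cannot be read as a result about the treatments. When the pileup was scaled by the floor in place of fold enrichment, the log2 difference between palbociclib and DMSO was 1.89 at PRIM1 and 1.88 at POLD2.

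The low and high ends of the background can be seen at PRIM2 and POLE3. PRIM2, with a background at the floor (1.00 times in both lists), ranked at place 6 by fold enrichment and place 9 by scaled pileup, with 11 and 19 fragments. POLE3, with the highest background of the 10 genes at 5.64 and 5.69 times the floor, held 28 and 37 fragments, more than PRIM2 in both replicates. Over all genes called in both palbociclib lists the median background was 2.83 times the floor, with quartiles at 1.89 and 3.94. The part of copy number or of control signal in these backgrounds was not tested.

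**Figure D3:**
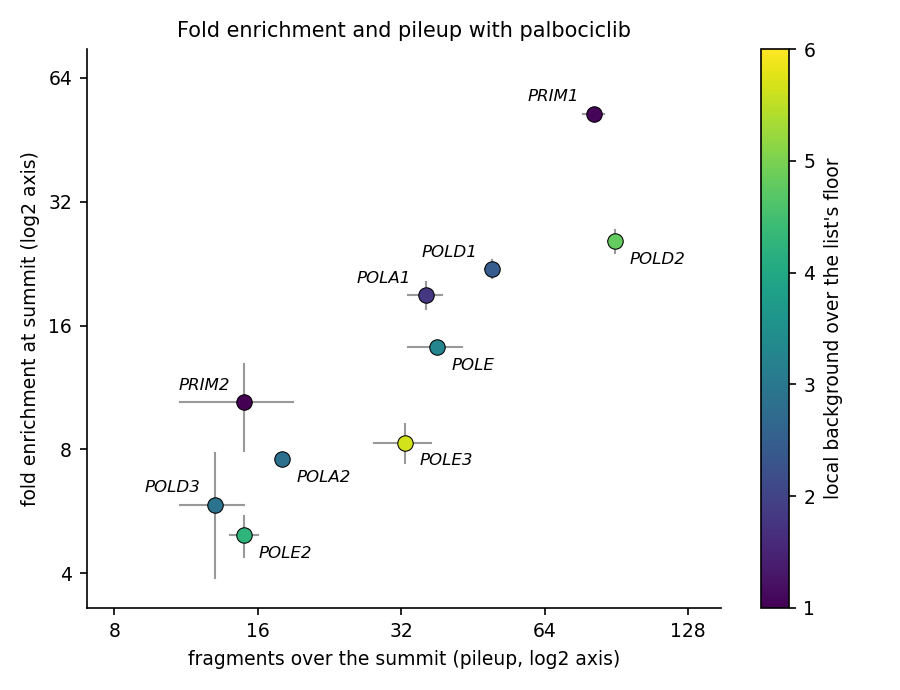
Mean fold enrichment against mean number of fragments over the summit (both log2 axes) in the 2 palbociclib lists, with grey lines joining the replicate values and colour giving the local background as a multiple of the list's floor. PRIM1 and POLD2 have similar fragment numbers but backgrounds of 1.07 and 4.80 times the floor, and PRIM2 lies above and POLE3 below genes of like pileup; POLD3 averages peaks at different starts.

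Whether a gene was also listed with DMSO followed its level with palbociclib. Among all genes with a mean palbociclib enrichment of 25 to 60, 93.6% had a peak in at least 1 DMSO list, and both members in that range, PRIM1 and POLD2, had one in both. In the range from 15 to 25 the share was 57.9%, and of the members there POLD1 had a DMSO peak and POLA1 had none. Between 10 and 15 it was 21.6%, with POLE listed in 1 DMSO list and PRIM2 in none. Between 6 and 10 it was 4.42%, with POLA2 listed once and POLE3 not at all. Below 6, where POLD3 and POLE2 lay, 0.856% of genes had a DMSO peak.

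**Figure D4:**
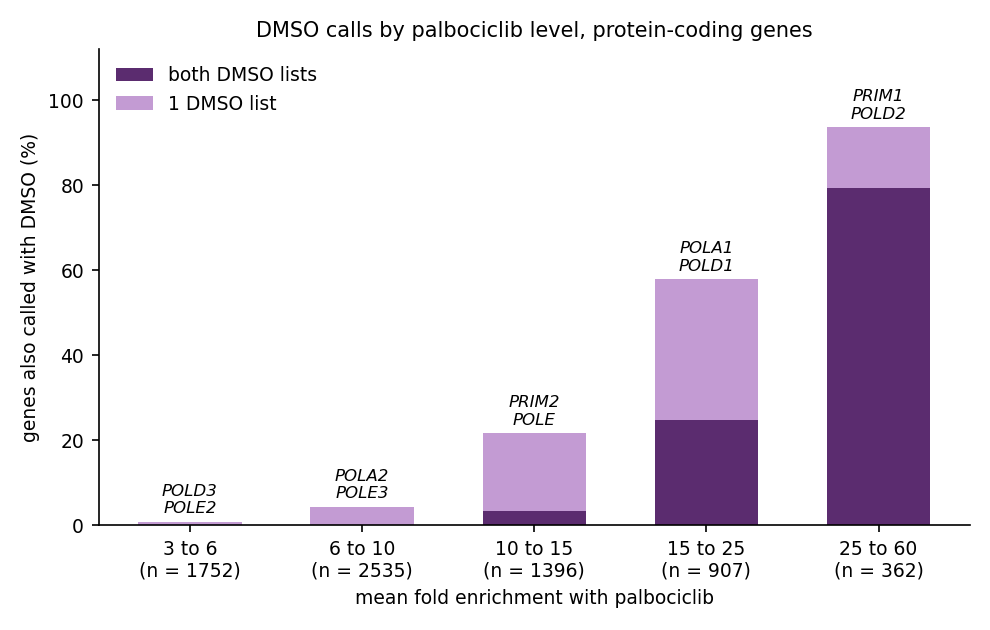
Share of protein-coding genes in both palbociclib lists that were also called in both DMSO lists (dark) or 1 DMSO list (light), by mean fold enrichment with palbociclib, with the replicative polymerase genes of each range named above its bar. The share goes from 0.856% in the lowest range to 93.6% in the highest.

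How far the treated pileup lay above what the DMSO lists could call differed between genes. At backgrounds within 10% of the one expected at each unlisted gene, the DMSO lists called peaks down to 6 to 14 fragments. Scaled by the floors, the palbociclib pileup of POLA1 was 4.85 and 4.51 times the lowest pileup called there in replicates 1 and 2, and that of POLD1 was 5.91 times the lowest in DMSO replicate 1. For POLE in DMSO replicate 2 the ratio was 3.31, for POLE3 it was 2.48 and 2.36, for PRIM2 2.66 and 1.86, and for POLA2 in DMSO replicate 1 it was 2.15. For POLE2 it was only 1.46 and 1.31, and for POLD3, averaged over peaks at different starts, 1.40 and 1.27. A DMSO pileup a little under the treated one would thus have gone unlisted at POLE2 and POLD3, and the lists cannot show whether these genes differed between treatments.

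Agreement between the palbociclib replicates was similar to that of other genes. The median absolute log2 gap between replicates was 0.21 over the 10 genes and 0.27 over all 6974. The smallest gaps were at POLE (0.06), POLA2 (0.06) and PRIM1 (0.10), and the largest at PRIM2 (0.71) and POLD3 (1.02), where the latter compares different starts.

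The median fold enrichment of the 10 genes with palbociclib was 12.3, compared with 8.36 over all 6974 genes called in both palbociclib lists. Against this, 18 other DNA polymerase genes (the remaining delta and epsilon subunits and the repair, translesion, mitochondrial, template-independent and telomerase enzymes) and 12 genes whose products work beside the replicative polymerases were described in the same way. Of the 18 other polymerase genes, 13 had a promoter peak in both palbociclib lists (34.9% of all protein-coding genes), with a median of 7.52. In both DMSO lists 1 was present (2.9% of all). That gene was PRIMPOL, a primase–polymerase that restarts stalled forks, at 5.58 and 7.48 with DMSO, then 27.2 and 35.7 with palbociclib. POLN, a polymerase linked to cross-link repair, reached 30.2 and 25.95 with palbociclib and 5.68 in DMSO replicate 1. POLH, the translesion polymerase that bypasses ultraviolet damage, had 14.2 in both palbociclib lists and no DMSO peak. The gene of the repair enzyme polymerase beta, POLB, had no Rb promoter peak in any parental list but was the only gene of the 3 lists with an IgG2a promoter peak, at 4.89.

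All 12 partner genes had a promoter peak in both palbociclib lists (34.9% of all protein-coding genes), with a median fold enrichment of 19.1. Of the 12, 8 were also present in both DMSO lists (2.9% of all). CLSPN, a replication checkpoint mediator, had 17.5 and 8.51 in the DMSO libraries, and 61.1 and 29.9 after palbociclib. The fragment numbers behind its palbociclib values were 164 and 169, with backgrounds of 3.29 and 8.54 times the floor. PCNA, the sliding clamp, had 8.99 and 7.82 with DMSO and 39.5 and 37.5 with palbociclib. TIMELESS, a fork protection factor, had 16.6 and 14.3 in the DMSO libraries, and 34.6 and 38.2 after palbociclib.

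The other partners present in all 4 lists were the replication protein A subunits RPA1, RPA2 and RPA3, the fork factor WDHD1 and TEN1, a subunit of the CST complex that recruits polymerase alpha–primase to telomeres. With palbociclib their mean levels were 20.5 at RPA1, 17.7 at RPA2, 36.3 at RPA3, 21.8 at WDHD1 and 15.1 at TEN1. The RPA3 peaks lay at an alternative start far inside the gene, not at its canonical one. Thus 8 of 12 partner genes, 2 of 10 replicative polymerase genes and 1 of 18 other polymerase genes were in both DMSO lists, where the share of all genes was 2.9%. These lists were written with earlier results of the data known, and the counts were not tested against each other.

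**Figure D5:**
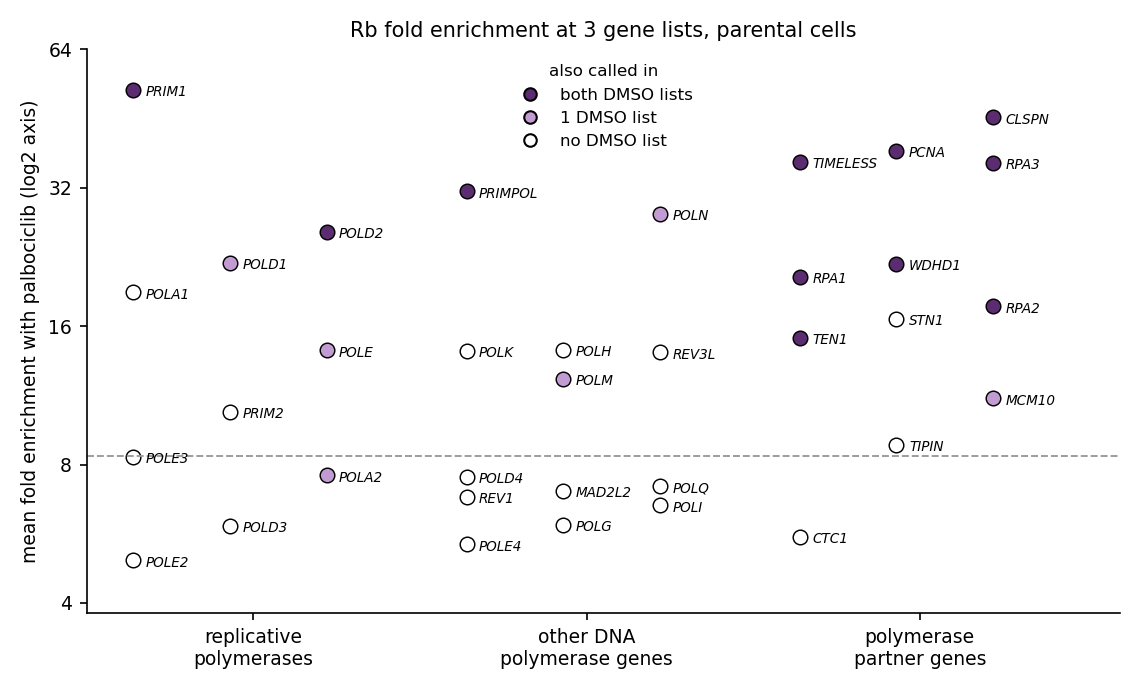
Mean fold enrichment with palbociclib (log2 axis) of genes called in both palbociclib lists, for the replicative polymerase genes (10 of 10), other DNA polymerase genes (13 of 18) and partner genes (12 of 12). Fill gives presence in the DMSO lists, and the dashed line marks the median over all protein-coding genes so called, 8.36.

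Over the 4 parental lists, the genes closest to PRIM1 in profile were HSD17B6, FAM117A, KAT7, SLF2 and OGG1, out of 579 other genes present in all 4. Likeness was the distance between log2 fold enrichments over the 4 lists. HSD17B6 had a distance of 0 because it shares the PRIM1 peak. FAM117A and KAT7 share a peak with each other and had a distance of 0.29, with 16.1 and 9.75 with DMSO and 53.4 and 51.9 with palbociclib. SLF2, a genome maintenance gene, followed at 0.32 and OGG1, the glycosylase that removes oxidised guanine, at 0.35.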

How the data were processed

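The study's authors aligned reads to hg38 with Bowtie2 2.3.4.1 and called peaks library by library with MACS2 2.2.7.1 on read pairs, against IgG, with duplicates kept and a q-value cutoff of 0.05. The control behind the IgG2a list is not given in the sources used here. Each of the 7 deposited lists gives peak coordinates, a display score, the fold enrichment at the summit, and the −log10 p and −log10 q of the peak. The display score was not used.

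Starts were taken from GENCODE 44 on the same build. A promoter peak overlapped, by at least 1 bp, the stretch from 2000 bp before to 500 bp after any start of the gene, and the one with the highest fold enrichment was described. Because MACS2 adds 1 to pileup and background and takes p from a Poisson distribution, both numbers were solved from fold enrichment and −log10 p, leaving misfits of at most 0.0055 in −log10 p; the solution was tested on simulated data. The smallest background of a list is its floor. The lists carry no read totals and show only what passed the cutoff.

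An exact permutation test, two-sided, compared log2 fold enrichment between parental groups for genes present in all 4 parental lists. Groups of 1 library were not tested.

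The 10 genes and both comparison lists were chosen with earlier results of these data known. Named beside them were POLD4 and POLE4, the 3 genes of each comparison list with the highest level with palbociclib, those in both DMSO lists, genes sharing a promoter peak, and the 5 closest to the strongest member. POLB and CTC1 were named after their values were seen. Python 3.11.15, numpy 2.4.6, scipy 1.17.1 and matplotlib 3.10.9 were used.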

Additional observations from a re-analysis of the deposited data

How the results depend on the processing

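Cutting every parental list to 816 peaks gave 3 genes with a promoter peak in both palbociclib lists in place of 10, and 0 with palbociclib alone in place of 5. Leaving out single parental libraries gave 10 genes bound with palbociclib each time, 2 to 4 with DMSO, 2 to 4 with both treatments and 5 to 7 with palbociclib alone. The 4 came without DMSO replicate 1, where POLA2 and POLD1 joined PRIM1 and POLD2. Shares of all genes without single libraries were not computed. The median summit distance was 71.5 bp from the nearest start and 102 bp from the canonical start. The whole E2F motif lay within 100 bp of the replicate 1 summit in 2 genes. It lay within 250 bp in 5 (POLA1, POLD1, POLD3, POLE and POLE2) and inside the peak in 5 (POLA1, POLA2, POLD1, POLE and POLE2). The shares of all replicate 1 promoter peaks for these windows were 5.45%, 12.6% and 13.5%, in that order. The log2 difference of replicate 1 from replicate 2 correlated at 0.065 between treatments over 580 genes. This value cannot show whether libraries of the same replicate number were processed together, which was not tested. With the replicate numbers as a block, the log2 difference at PRIM1 and POLD2 is again 1.87 and 1.78. With 2 libraries per group the mean of paired differences must equal the difference of means, so this is no check. The smallest p of a paired exact permutation is 0.5. Without single libraries the log2 difference ranged from 1.53 to 2.2 at PRIM1 and from 1.64 to 1.91 at POLD2, as values with no test. The median peak width per palbociclib list averaged 668.25 bp and was 647.5 and 689 bp in the single lists (the median of 711 bp given above is over each gene's mean of both lists), and summit distance ranged from 51 to 92 bp without single libraries. The other alternatives, 60 of 67 in all, left the values within the replicate spread, of the same sign or within 1.5 times the count. This tally is no measure of robustness, because many of these alternatives could not have come out otherwise. With 2 replicates, leaving out 1 always keeps a width, distance or log2 difference within the replicate spread. Leaving out a library of either treatment cannot change values taken from the other alone. A −log10 q of at least 5 was also among the alternatives. Under it POLD3 and POLE2 were not in both palbociclib lists, and POLA2 and POLD1 were listed with palbociclib alone. At that −log10 q, 8 of 10 genes were in both palbociclib lists, against 26.8% of all genes. With palbociclib alone 5 were listed, against 23.3%. With 2 libraries per group the exact permutation test could not reach 0.05, and a missing peak gives no level.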
